A study of Mus musculus with 2 samples.

Results

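Chains of distal open sites were stretches of the erythroblast genome in which at least 3 open chromatin sites, all away from annotated promoters, followed one another at short distances. A site was an interval of the thresholded peak list of replicate 1, on chromosomes 1 to 19 or X, that overlapped a thresholded interval of replicate 2 by at least 1 bp. It counted as distal when its strongest summit lay more than 1 kb from every annotated transcription start site (GENCODE M21). Distal sites were joined into a chain as long as the gap between neighbours was 12.5 kb or less. The members were thus chosen by measured values, namely the presence of an interval in both replicates and the place of its strongest summit. The number of chains, their size and their span follow from that choice and are given as a description. The rule kept 1419 sites in 402 chains, of 6469 distal sites and 16180 sites found in both replicates. Members made up 21.9% of the distal sites and 8.77% of the sites found in both replicates.

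The data were ATAC-seq peak lists of primary erythroblasts from male C57BL/6J mice aged 5 to 6 weeks, with 50000 cells in each of 2 biological replicates. ATAC-seq marks DNA that a transposase can reach in the nucleus. There was 1 group, with no treated or mutant samples, so no comparison between conditions was possible and none was made. The replicates have separate biosamples but carry the same donor identifier, and the sources used here do not say how independent they are. The lists hold no read counts and the depth of each library is unknown. Of 16 erythroblast marker genes, 15 had an open promoter in both replicates, the exception being Alas2, which encodes the erythroid enzyme of the initial step of heme synthesis.

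Red cell precursors build up hemoglobin from globin chains and heme while the cell shrinks and its nucleus condenses. Many of their genes are switched on through distal elements bound by GATA1, often together with TAL1 at a composite sequence and with KLF1 at a CACCC sequence. Several such elements can lie in a row near 1 gene. The locus control region of the beta globin genes and the enhancers inside Nprl3 that serve the alpha globin genes are textbook examples. CTCF, in contrast, is known for binding at the borders of chromatin domains.

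The sequences of 4 sites are shown because they are the strongest members of the 4 chains with most members, and they show how differently such sites can be built. Each is the window of 151 bp around the strongest summit, on the plus strand of GRCm38.p6 (the same coordinates as mm10), with every match to the 10 motifs searched in capitals. The motifs are spelled out with the motif shares. The windows lie at chr11:96963669-96963819 in an exon of Sp2, at chr8:122294267-122294417 in an intron of Zfpm1, at chr2:32137946-32138096 between genes, 13.1 kb from the nearest start site of Prrc2b, and at chr12:24879609-24879759 in an intron of Mboat2. The capitals mark a RUNX match and a CTCF core in the Sp2 window, a GATA motif in the Zfpm1 window, and a GC box, a GATA motif and a KLF motif in the Mboat2 window. The Prrc2b window holds none of the 10.
Sp2: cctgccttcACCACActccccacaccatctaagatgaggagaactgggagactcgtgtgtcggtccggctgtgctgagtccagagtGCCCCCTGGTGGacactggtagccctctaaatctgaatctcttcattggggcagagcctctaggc
Zfpm1: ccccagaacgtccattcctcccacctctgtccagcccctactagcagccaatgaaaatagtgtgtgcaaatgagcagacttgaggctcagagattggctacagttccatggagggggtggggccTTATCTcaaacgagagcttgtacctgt
Prrc2b: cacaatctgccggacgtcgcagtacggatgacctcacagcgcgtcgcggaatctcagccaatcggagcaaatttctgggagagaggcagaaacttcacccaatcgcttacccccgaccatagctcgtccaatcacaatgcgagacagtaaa
Mboat2: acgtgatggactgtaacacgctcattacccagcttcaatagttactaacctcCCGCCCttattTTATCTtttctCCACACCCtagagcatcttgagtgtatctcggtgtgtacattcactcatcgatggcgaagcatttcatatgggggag

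The next 5 windows are examples of the motifs themselves. Each belongs to the chain member with the highest mean enrichment among members with that motif, and the capitals mark that motif only. The GATA example lies at chr4:42860614-42860764, 3.92 kb from the start of Gm12394. The composite of a TAL1 sequence and a GATA motif lies at chr11:30166310-30166460, in an intron of Sptbn1, which encodes a nonerythroid beta spectrin. The KLF example lies at chr16:32597983-32598133, 10.9 kb from the nearest start site of Tfrc, the transferrin receptor through which erythroblasts take up iron. The NFE2 and AP-1 example lies at chrX:8000680-8000830, 17.7 kb from the start of Glod5 in the chain near Gata1. The CTCF example lies at chr1:170632485-170632635, 12 kb from the start of Olfml2b.
Gm12394, GATA: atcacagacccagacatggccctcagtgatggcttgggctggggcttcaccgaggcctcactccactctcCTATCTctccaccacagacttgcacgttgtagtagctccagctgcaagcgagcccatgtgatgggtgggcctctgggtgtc
Sptbn1, composite: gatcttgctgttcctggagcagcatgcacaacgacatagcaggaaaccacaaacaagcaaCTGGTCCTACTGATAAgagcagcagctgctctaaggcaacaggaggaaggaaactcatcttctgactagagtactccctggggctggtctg
Tfrc, KLF: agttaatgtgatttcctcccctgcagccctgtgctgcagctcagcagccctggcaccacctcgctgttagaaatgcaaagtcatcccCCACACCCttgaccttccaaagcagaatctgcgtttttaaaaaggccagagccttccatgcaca
Glod5, NFE2 and AP-1: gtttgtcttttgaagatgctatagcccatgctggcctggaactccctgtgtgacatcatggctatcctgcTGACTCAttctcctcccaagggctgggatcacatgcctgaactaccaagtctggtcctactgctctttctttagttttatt
Olfml2b, CTCF: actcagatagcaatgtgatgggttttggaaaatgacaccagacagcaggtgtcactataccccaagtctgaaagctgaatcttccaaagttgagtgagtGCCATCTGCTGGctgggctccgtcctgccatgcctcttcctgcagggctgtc

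Most chains were short. There were 267 chains of 3 sites (66.4%), 85 of 4, 32 of 5, 14 of 6, 2 of 7 and 2 of 10 sites. The other distal sites formed 762 pairs and 3526 single sites. The span of a chain, measured between the outer ends of its first and last member, had a median of 13.4 kb, with quartiles of 8.75 and 18.6 kb and extremes of 1.43 and 57.0 kb. All chains together spanned 5.75 Mb, or 0.218% of the 2634 Mb of chromosomes 1 to 19 and X, and the members covered 13.6% of that span. The 50 chains with 5 or more sites held 278 of the members.

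The 1017 gaps between neighbours inside chains ranged between 43 and 12489 bp, with a median of 4.41 kb, and 200 of them (19.7%) were 1 kb or shorter. The smallest gap that broke a run was 12511 bp. The member nearest to a start site lay 1007 bp away, and the farthest promoter site, left out by the rule, lay 1000 bp away. Where intervals up to 1 kb apart were counted as 1 site, which was chosen after seeing the data, 295 chains of 3 or more sites remained.

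**Figure D1:**
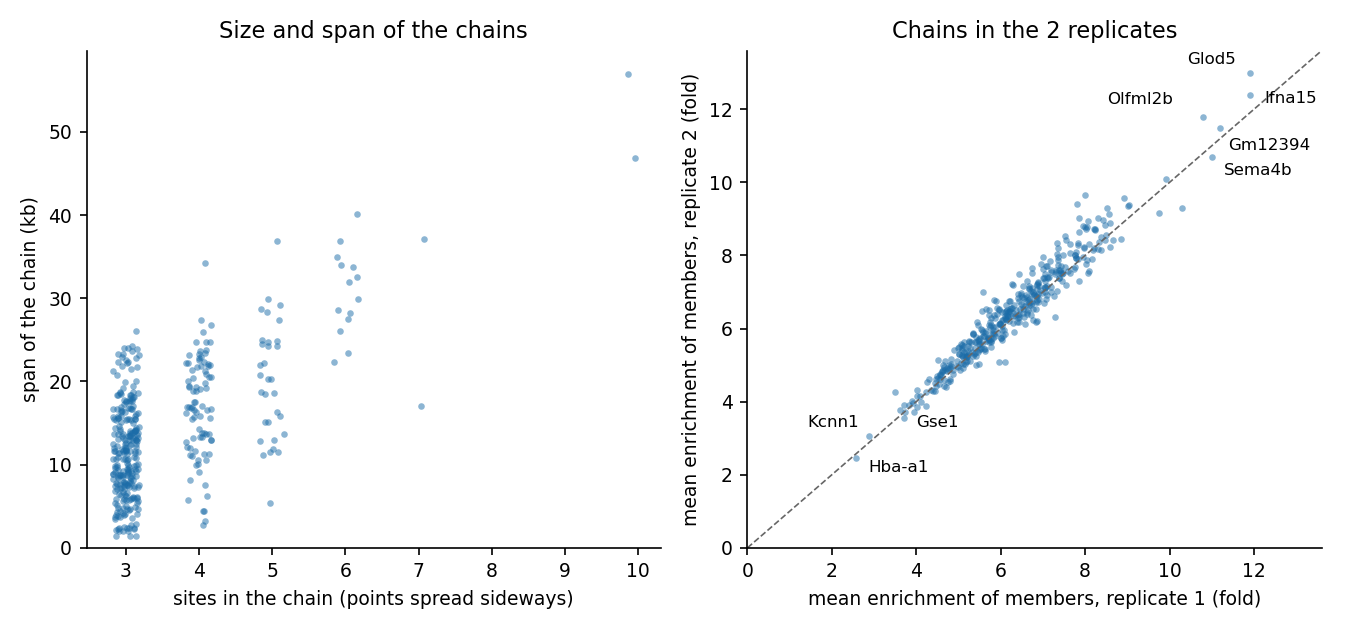
Left, the number of sites (x axis, points spread sideways) and the span in kb (y axis) of each of the 402 chains. Right, the mean enrichment of each chain's members in replicate 1 (x axis) and replicate 2 (y axis), in fold over background, with the line of equality dashed and the chains of highest and lowest mean enrichment named. The 2 chains of 10 sites spanned 46.9 and 57.0 kb, and chain means in the replicates lie close to the line.

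The chains were nearly the same when built from the other replicate. The same rule applied to replicate 2 intervals that overlap a replicate 1 interval gave 408 chains with 1435 members and a median span of 13.3 kb. Of the 402 chains, 393 overlapped one of these (97.8%, 95% Wilson interval 95.8 to 98.8, as for all intervals of shares, which cover counting error only), and 362 met one with the same number of sites. The rule itself demands that each site is found in both replicates, so this agreement is largely fixed by the choice of members. Within the spans, 30 further distal intervals were found in replicate 1 only and 52 in replicate 2 only.

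Enrichment is the fold of a summit over background in the authors' lists, and for each site it is the value of the strongest summit. Over chains, the mean enrichment of members had a median of 6.19 in replicate 1 and 6.38 in replicate 2. It ranged between 2.57 and 11.9 in replicate 1 and between 2.47 and 13.0 in replicate 2. As a description across the 402 chains, which share both libraries, Pearson's r between the replicates was 0.968. The strongest member was the same site in both replicates in 349 chains (86.8%). It was a median 1.70 times as enriched as the weakest member in each replicate, and more than 2 times in 108 chains of replicate 1 and in 106 of replicate 2. Of the 267 chains of 3 sites, 68 had the strongest site in the middle. In 23 chains, 46 members shared a replicate 2 interval with another member, so their replicate 2 values are not separate measurements.

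Members were less enriched than other distal sites, yet not less significant. Their median enrichment was 6.02 in replicate 1 and 6.14 in replicate 2, against 6.64 and 6.82 for paired sites, 7.80 and 7.88 for single sites and 7.13 and 7.28 for all distal sites. The order of the classes was the same in both replicates. The SD between the 2 replicate medians of the members was 0.0825, which measures a shift between libraries and not the spread of the difference between classes. No test was made, since sites of the same libraries are not replicates. The median −log10 p of the same summits in the authors' lists was nearly that of paired sites and higher than that of single sites. It was 35.0 in replicate 1 and 38.2 in replicate 2 for members, against 34.9 and 37.9 for paired sites and 31.5 and 33.2 for single sites. Members and single sites had a like width, with medians of 491 and 513 bp, and a like GC content of their windows, with medians of 53.0% and 52.3%. The sources used here do not state how the peak caller set the local background against which the fold is taken. The part of that background in the opposite order of fold and significance between members and single sites was not tested.

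Enrichment was lower where the nearest other distal site was close. The 1063 distal sites with a neighbour within 2 kb had median enrichments of 5.64 in replicate 1 and 5.79 in replicate 2. Those whose nearest neighbour was between 5 kb and the limit of 12.5 kb had 7.42 and 7.54, nearly the values of those between that limit and 50 kb, which were 7.47 and 7.59. The 589 sites with no distal neighbour within 200 kb had 8.43 and 8.55. The median −log10 p was highest, at 35.8 in replicate 1 and 39.2 in replicate 2, for neighbours between 5 and 12.5 kb. It was 30.7 and 31.9 for the most isolated sites.

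Chain members were concentrated among the weaker distal sites by fold. In replicate 1, they made up 38.6% of the weakest quartile of distal sites by enrichment (36.2 to 41.0) and 9.21% of the strongest quartile (7.90 to 10.7), beside 21.9% of all distal sites. In replicate 2 the shares were 38.1% and 9.89%. In 72 of the 402 chains the span also held weak sites beyond the members. Of 5131 distal sites that the less strict list of each replicate held and neither thresholded list did, 82 lay inside chain spans. This was 14.3 per Mb, against 1.95 per Mb over the whole genome. The spans were chosen for closely spaced distal sites, and the density around paired or single sites was not taken for comparison.

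**Figure D2:**
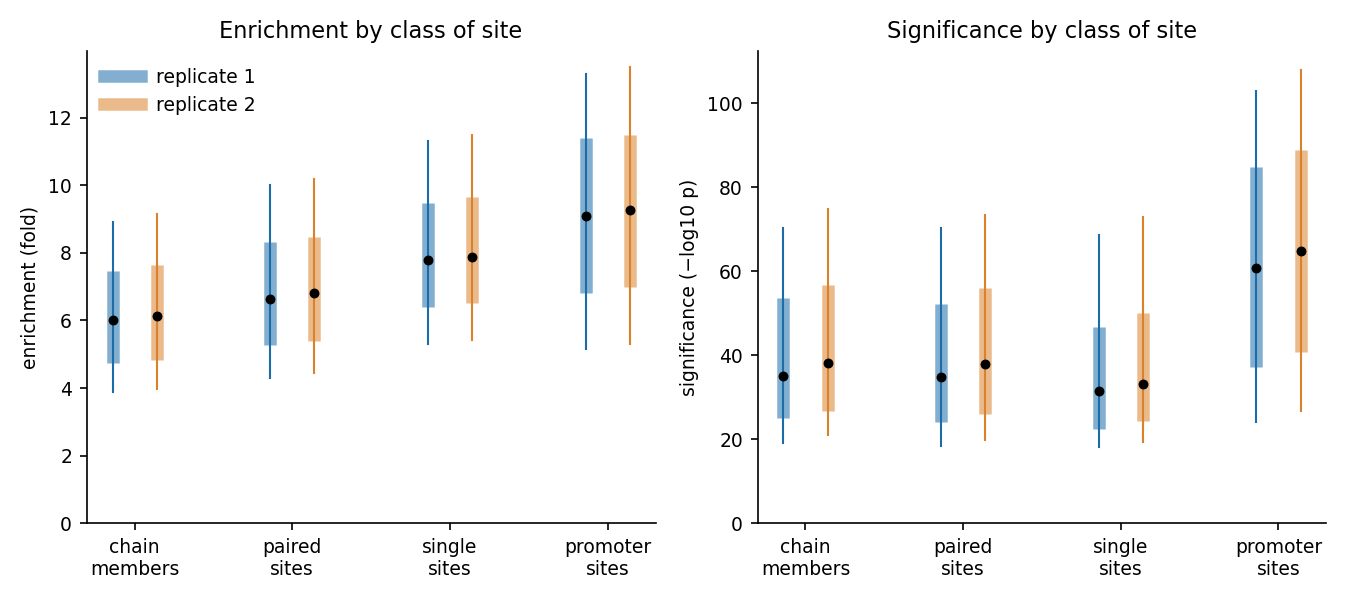
Enrichment (left, fold over background) and significance (right, −log10 p) of the strongest summit of chain members, paired sites, single sites and promoter sites in each replicate. Points are medians, thick bars run between the quartiles and thin lines between the 10th and 90th percentiles. Chain members have the lowest median enrichment, 6.02 and 6.14, but a higher median −log10 p, 35.0 and 38.2, than single sites.

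The widest chain lay over Zfpm1, which encodes FOG1, the cofactor that GATA1 needs in red cell precursors. It had 10 sites over 57.0 kb (chr8:122273900-122330880), and an open promoter site lay within the span. A readthrough gene, Gm20388, overlaps Zfpm1 in the annotation and extends beyond it. The sites between chr8:122273900 and chr8:122277604, among them the weakest, lay outside Zfpm1, which starts at chr8:122282141. They lay in introns of Gm20388 and carry the name of that gene. The strongest site, the Zfpm1 window printed above, had an enrichment of 6.95 in replicate 1 and 7.32 in replicate 2. The weakest, the third, had 2.55 and 2.70. The chain mean was 4.47 in replicate 1 and 4.43 in replicate 2, so the chain with the greatest span stood below the median chain in both. GATA motifs were found at 7 of the 10 sites, with 4 copies at 1 of them, whose enrichment was 5.92 and 5.05.

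The other chain of 10 sites (chr11:96917188-96964064, 46.9 kb) crossed several genes. Its strongest site lay in an exon of Sp2, which encodes a zinc finger factor of the Sp and KLF family. Members of the chain had enrichments between 2.78 and 7.48 in replicate 1 and between 3.00 and 8.09 in replicate 2. The strongest site, the Sp2 window printed above, carried a CTCF core and no GATA motif.

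Chains of 7 sites lay near Prrc2b (chr2:32115482-32152611, 37.1 kb), with 6 sites between genes, and inside Mboat2 (chr12:24875969-24893020, 17.1 kb), which encodes a lysophospholipid acyltransferase. In the Prrc2b chain the strongest site had 9.46 in replicate 1 and 9.65 in replicate 2, and the weakest had 3.45 and 3.37. The Mboat2 sites were more even, between 3.77 and 5.64 in replicate 1 and between 3.89 and 5.85 in replicate 2. Of the Mboat2 sites 5 had a GATA motif, and of the Prrc2b sites 3 did.

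The 6 chains of 6 sites with the highest summed enrichment were called after Fig4, Pgrmc2, Ccnd3, Jade2, D5Ertd579e and Tmcc2. Ccnd3 encodes cyclin D3, which is known to set how often erythroid precursors divide. Its 6 sites all lay in introns and had 4.21, 8.49, 7.79, 6.88, 4.30 and 8.06 in replicate 1, and 4.34, 8.94, 7.05, 5.81, 4.31 and 7.93 in replicate 2. The second site was the strongest and the first and the fifth the weakest in both. The 6 intronic sites of Fig4, a phosphoinositide phosphatase gene, spread most, between 3.09 and 14.7 in replicate 1 and between 3.10 and 15.7 in replicate 2. The chain called after Pgrmc2 had no protein-coding gene within 50 kb. Its strongest site lay 72.5 kb from the start of that gene and had 12 in replicate 1 and 13.4 in replicate 2, and 5 of its 6 sites carried a GATA motif.

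Tmcc2, which the membrane and cytoskeleton list holds, had a chain of 6 sites over 36.9 kb with an open promoter site within the span. The sites inside the gene were weaker, between 3.71 and 6.19 in replicate 1 and between 3.90 and 6.17 in replicate 2. The 2 intergenic sites had 9.57 and 7.66 in replicate 1 and 9.39 and 9.32 in replicate 2. The GATA motifs were on the other side of that split, at 3 of the 4 sites inside the gene and at neither intergenic site.

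**Figure D3:**
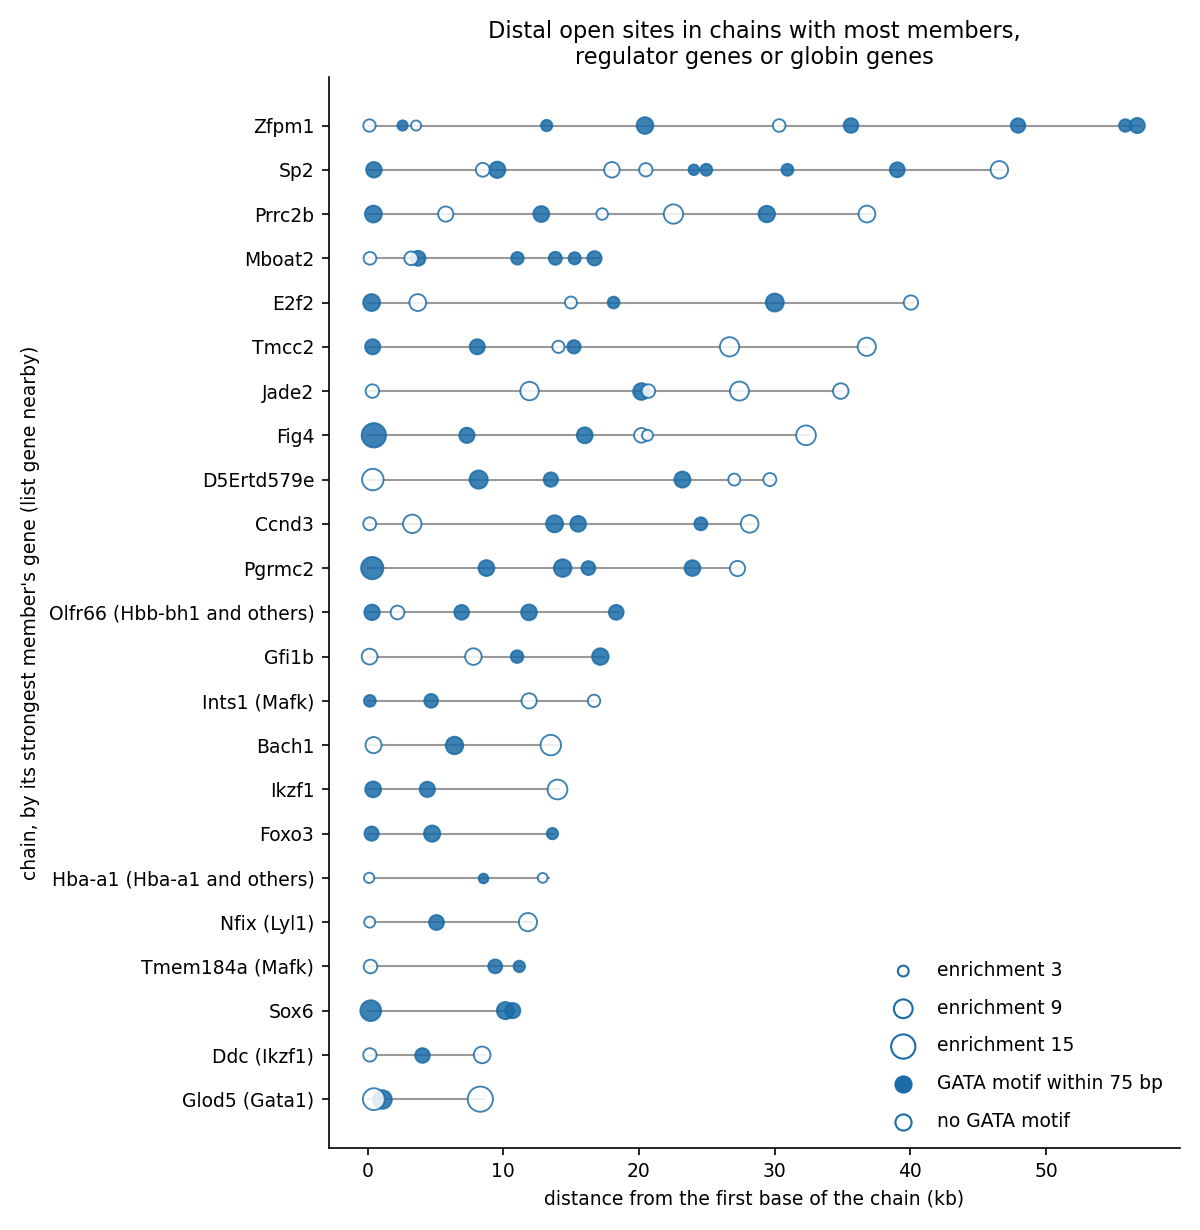
Sites of the 10 chains with most members and of chains with an erythroid transcription regulator or globin gene within 50 kb, drawn to scale from the first base of each chain (x axis, kb, with 1 chain per line and a list gene in brackets where the chain is called after another gene). Circle area is proportional to the mean enrichment of the 2 replicates and filled circles have a GATA motif. The Zfpm1 chain reaches 57.0 kb, and all 3 sites of the Sox6 chain and of the Foxo3 chain are filled.

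Of 28 erythroid transcription regulators, 10 (35.7%, 20.7 to 54.2) lay within 50 kb of a chain, beside 5.25% of all protein-coding genes. These were Zfpm1, E2f2, Gfi1b, Mafk, Sox6, Lyl1, Foxo3, Ikzf1, Bach1 and Gata1. The other regulators of the list, among them Tal1, Klf1, Nfe2, Lmo2, Ldb1, Bcl11a and Gata2, had no chain within 50 kb. Mafk and Ikzf1 each had 2 chains. With those of the globin genes this made 14 chains.

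Gata1, the X-linked gene of the main erythroid GATA factor, lay 14.4 kb from a chain of 3 intergenic sites (chrX:7992448-8001080). Its sites had 12.4, 8.67 and 14.8 in replicate 1 and 12.1, 9.05 and 17.7 in replicate 2, and its mean enrichment, 11.9 and 13.0, was the highest of any chain over the mean of the replicates. A GATA motif, part of a composite, was found at the middle site only, which was the weakest of the 3 in both replicates. Called by its strongest member, the chain bears the name of Glod5, 17.7 kb away. It was 1 of only 4 chains on the X chromosome, where 12 of 132 distal sites were members (9.09%, 5.28 to 15.2).

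Sox6 encodes a repressor of embryonic globin genes. Its chain lay in an intron, with 10.9, 7.76 and 5.61 in replicate 1 and 11.2, 7.45 and 6.29 in replicate 2, and all 3 sites had a GATA motif. The Foxo3 chain, in introns of a forkhead factor gene tied to red cell maturation, also had a GATA motif at all 3 sites, with 5.34, 6.83 and 3.29 in replicate 1 and 5.08, 6.69 and 3.30 in replicate 2. The middle site was the strongest in both, and it held the composite.

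Gfi1b encodes a repressor needed for red cells and platelets. Its chain of 4 intergenic sites ended 6.72 kb from the gene and had 5.90, 7.20, 3.85 and 7.21 in replicate 1 and 6.88, 6.83, 4.33 and 6.89 in replicate 2. The third site was the weakest in both and the fourth, by a small margin, the strongest, while the first and second changed order between the replicates.

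E2f2, a cell cycle factor gene active in late erythroblasts, had 6 sites over 40.2 kb with 2 open promoter sites in between. They ranged between 3.56 and 8.16 in replicate 1 and between 3.53 and 8.39 in replicate 2. The intronic site 9.24 kb from its nearest annotated start site was the strongest. The 2 sites at 2.61 and 2.64 kb, each from the start site nearest to it, were the weakest, and both had a KLF motif.

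Bach1 encodes a repressor that heme inactivates. Its 3 intronic sites had 6.50, 7.92 and 11.3 in replicate 1 and 6.84, 7.83 and 10 in replicate 2. The outer 2 carried an NFE2 and AP-1 motif and the middle one GATA motifs. Of the chains near Ikzf1, the one inside that gene had 6.57, 6.20 and 9.49 in replicate 1 and 6.38, 5.81 and 10.4 in replicate 2, with the strongest site lacking a GATA motif. The other, called after Ddc, averaged 5.76 and 5.70. The chains near Mafk were called after Ints1 (4 sites, mean 4.70 and 4.41) and Tmem184a (3 sites, mean 4.40 and 4.29). The one near Lyl1 lay inside Nfix, 21.2 kb away, and averaged 5.53 and 5.98.

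The alpha and the beta globin genes each had 1 chain, so all 10 globin genes lay within 50 kb of a chain but only 2 chains stand behind that count. The alpha globin chain (3 sites, chr11:32285177-32298563) had the lowest mean enrichment of all chains, 2.57 in replicate 1 and 2.47 in replicate 2, with its sites between 2.48 and 2.66 and between 2.35 and 2.72. These sites stood at percentiles between 0.208 and 0.315 of all intervals by enrichment in replicate 1 and between 0.170 and 0.393 in replicate 2. None of them lies inside Nprl3. The beta globin chain (5 sites, chr7:103858974-103877469) covers the locus control region and is called after Olfr66 by its strongest member. Its sites had 6.22, 5.05, 5.60, 6.54 and 5.39 in replicate 1 and 6.08, 4.60, 5.52, 6.22 and 5.84 in replicate 2. GATA motifs were found at 4 of these 5 sites and the composite at 3.

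The chains with the highest mean enrichment after that near Gata1 were called after Ifna15, Gm12394, Olfml2b and Sema4b, with means between 10.8 and 11.9 in replicate 1 and between 10.7 and 12.4 in replicate 2. All their sites were intergenic. The Ifna15 and Gm12394 chains lay 145 and 68.7 kb from the nearest open promoter site. The Gm12394 chain owed its rank to 1 site, whose enrichment was 27.5 in replicate 1 and 25 in replicate 2, the other 4 lying between 4.66 and 10 in replicate 1 and between 4.85 and 9.44 in replicate 2, where 2 of them share an interval. After alpha globin, the lowest means over both replicates were those of a chain at Kcnn1 (2.89 and 3.07) and of a chain in Gse1 (3.70 and 3.54), which spanned 3.75 and 3.82 kb.

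Over the erythroid gene lists combined, 43 of 116 genes (37.1%, 28.8 to 46.1) lay within 50 kb of a chain, beside 5.25% of all 21755 protein-coding genes (1142 genes). Without the globin genes the count was 33 of 106 (31.1%, 23.1 to 40.5), which still includes Nprl3, reached by the alpha globin chain alone. The 43 genes lay near 38 chains with 145 members, so 9.45% of the chains had an erythroid list gene nearby. The shares were also taken among genes with an open promoter, meaning an interval of each replicate within 1 kb of a start site. Of the 9080 protein-coding genes with an open promoter in both replicates (41.7% of all), 8.39% lay near a chain, and of the 99 erythroid list genes with an open promoter 36.4% did (27.6 to 46.2). Genes near a chain in turn had an open promoter in 66.7% of cases.

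The heme and iron list had 7 of its 26 genes near a chain (26.9%, 13.7 to 46.1, beside 5.25% of all protein-coding genes). These were Tfrc, Fth1, Ftl1, Glrx5, Cpox, Slc25a37 and Slc11a2. Fth1 and Ftl1 encode the ferritin chains that store iron, Cpox an enzyme of heme synthesis, and Slc11a2 an iron transporter. The 3 sites at Tfrc had 13.5, 3.49 and 4.12 in replicate 1 and 12.6, 4.07 and 4.69 in replicate 2, with the strongest outside the gene. Both this site and the next had a KLF motif. Glrx5, which encodes a mitochondrial glutaredoxin of iron-sulfur cluster assembly, had a chain of 5 sites, each with a GATA motif, and 3 open promoter sites in its span. Its sites ranged between 4.22 and 8.26 in replicate 1 and between 4.58 and 8.91 in replicate 2. The chains by Fth1 and Ftl1 had no GATA motif at any of their 6 sites. Slc25a37 (mitoferrin) was counted through a chain 33.1 kb away, called after Entpd4, all 3 of whose sites have a near-identical copy elsewhere in the genome. Slc11a2 was only just within the limit, through a chain 49.6 kb away, called after Mettl7a1, with no GATA motif at any site.

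Of 28 membrane and cytoskeleton genes 9 lay near a chain (32.1%, 17.9 to 50.7, beside 5.25% of all protein-coding genes). These were Tmcc2, Stom, Epb41, Rhd, Kcnn4, Icam4, Aqp9, Cd47 and Gypc. Rhd and Icam4 encode blood group proteins and Cd47 a surface signal that protects red cells from macrophages. Rhd was only just within the limit, through a chain 49.8 kb away, called after Syf2. Chains of 5 sites lay at Epb41 (protein 4.1), at the potassium channel gene Kcnn4, at Gypc (glycophorin C) and 23.0 kb from Cd47. The 3 intronic sites of Stom, which encodes stomatin, each had a GATA motif, with 4.86, 6.04 and 4.44 in replicate 1 and 4.87, 5.74 and 4.52 in replicate 2. The 3 sites in the water and glycerol channel gene Aqp9 also each had one, and their mean enrichment was higher, 7.48 and 8.02.

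Of 25 receptor, survival and maturation genes 7 lay near a chain (28.0%, 14.3 to 47.6, beside 5.25% of all protein-coding genes). These were Bcl2l1, Car2, Trim58, Ube2l6, Ube2o, Pim1 and Nprl3. Nprl3 was counted through the alpha globin chain, 17.5 kb away, and none of the 3 sites of that chain lies inside Nprl3. Trim58, Ube2l6 and Ube2o encode ubiquitin ligases or conjugating enzymes of late erythroid cells. Bcl2l1 encodes the survival protein BCL-XL, and its 3 intronic sites were alike, with 5.01, 3.91 and 4.42 in replicate 1 and 4.91, 3.93 and 3.99 in replicate 2. Car2, the gene of carbonic anhydrase 2, had 5.10, 5.96 and 3.56 in replicate 1 and 4.64, 5.89 and 3.71 in replicate 2. All 3 Car2 sites had a GATA motif, the first with 3 copies. Ube2o and Pim1 each had 2 chains within 50 kb, with 8 and 7 sites. A chain counted for Ube2o lay wholly outside it, with its sites called after Prpsap1 and Sphk1. Neither Pim1 chain overlaps that gene, and the nearer lay 6.17 kb away.

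Lists of genes that are active in most dividing cells were nearer to the background. Of 30 cell cycle genes 4 lay near a chain (13.3%, 5.31 to 29.7), namely Cdc25b, E2f4, Aurkb and Ccnd3, and of 28 housekeeping genes 3 (10.7%, 3.71 to 27.2), namely Psmb4, Gusb and Actb. Open promoters were found at 29 and 27 of these genes. Lists of markers of other blood cells and tissues are short, so their shares are imprecise beside the 5.25% of all protein-coding genes. Of 21 megakaryocyte and platelet markers 2 lay near a chain (9.52%, 2.65 to 28.9), Mmrn1 and Vwf, whose chains lay inside the genes and averaged 6.57 and 6.12, and 6.87 and 7.07. Of 22 granulocyte, monocyte and macrophage markers 2 did (9.09%, 2.53 to 27.8), Prtn3 and Elane, which share 1 chain, 26.1 kb from Elane and with its strongest site inside Arid3a. No gene was near a chain among 16 B cell, 20 T and NK cell, 16 stem and progenitor, 17 hepatocyte and 17 neuron markers, where the upper limits of the intervals are 16.1% to 19.4%.

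**Figure D4:**
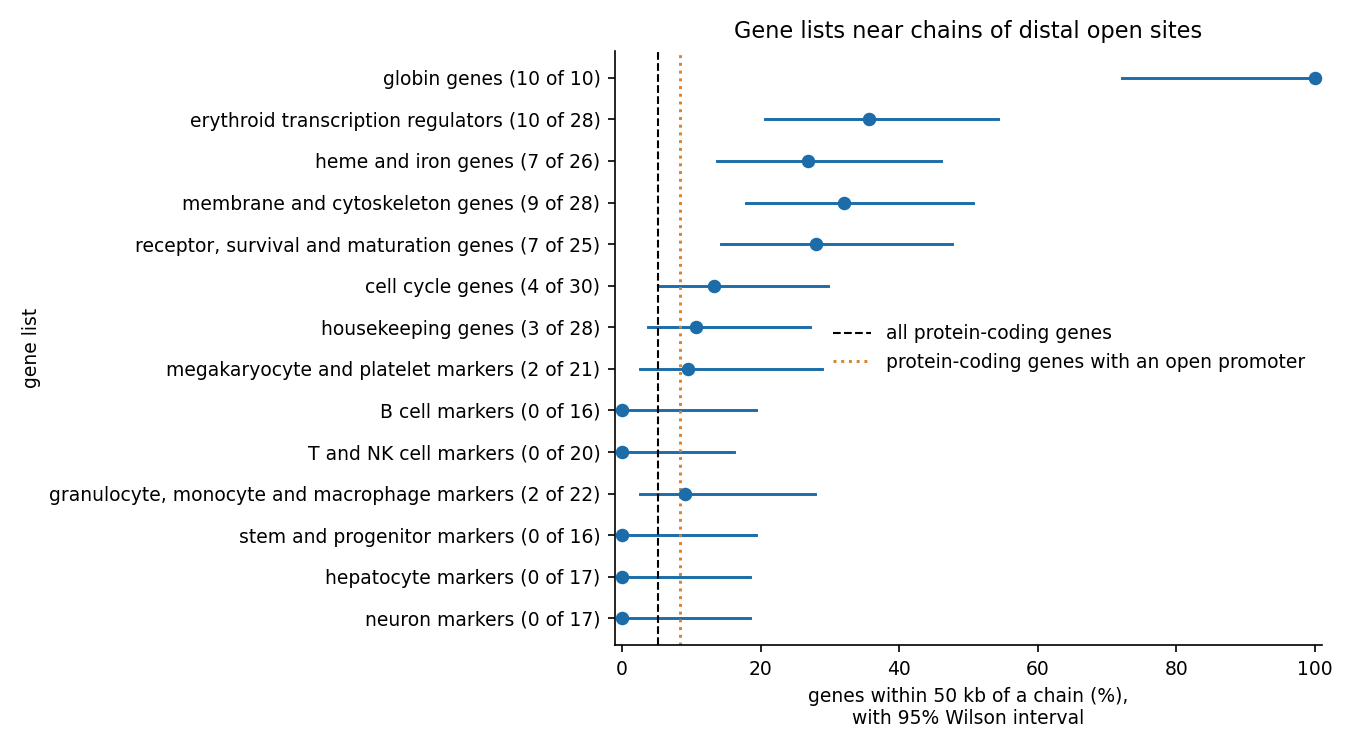
Share of the genes of each list that lie within 50 kb of a chain (points, with 95% Wilson intervals), with the counts in brackets. The lines mark all protein-coding genes (5.25%) and protein-coding genes with an open promoter (8.39%). The 5 erythroid lists lie between 26.9% and 100%, and the other lists between 0% and 13.3%.

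Each window of 75 bp to either side of the strongest summit was searched on either strand. GATA stood for AGATAA or AGATAG and for TGATAA or TGATAG, KLF for CCACACCC or CCACGCCC, NFE2 and AP-1 for TGANTCA, RUNX for TGTGGT or TGCGGT, and PU.1 for GAGGAAGT. ETS stood for CCGGAA, the GC box for GGGCGG and STAT for TTCNNNGAA. The composite was CTG followed, after 7 or 8 bases, by AGATAA or TGATAA, so each composite also holds a GATA motif. The CTCF core was a degenerate sequence of the central bases of the known CTCF motif. A match is a description of the sequence and shows no binding.

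GATA motifs were more frequent in members than in single sites. They were found in 760 of 1419 members (53.6%, 51.0 to 56.1), 52.9% of paired sites and 43.7% of single sites (42.1 to 45.3), beside 48.0% of all distal sites. Flanking windows of the same size, centred 1000 bp to each side of member summits and free of intervals, had a GATA motif in 21.4%, and promoter sites in 12.9%. The intervals of members and single sites do not overlap. They count neighbouring sites of the same 2 libraries as independent, so this is no test. Members also exceeded single sites within each quartile of distal sites by enrichment, in both replicates. In the weakest quartile of replicate 1, GATA motifs were in 52.2% of members (48.3 to 56.1) and 42.1% of single sites (37.8 to 46.5). In its strongest quartile, with 149 members, the shares were 53.7% (45.7 to 61.5) and 47.7% (44.8 to 50.5), whose intervals overlap. Paired sites, at 58.8%, exceeded members there.

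The CTCF core showed the reverse order. It was found in 80 members (5.64%, 4.55 to 6.96), 8.53% of paired sites and 12.5% of single sites (11.4 to 13.6), beside 10% of all distal sites and 0.0404% of flanking windows. In both replicates members had a lower share than single sites within each quartile by enrichment. In the quartile above the weakest of replicate 1, for instance, the core was in 7.03% of members (4.84 to 10.1) and 17% of single sites (14.7 to 19.7). By distance the share did not move one way throughout. It was 5.17% with a distal neighbour within 2 kb, 14.3% with the nearest between 50 and 200 kb, and 9.34% with none within 200 kb.

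The other motifs differed less between classes. The composite was in 11.6% of members, 12.7% of paired sites and 11.2% of single sites, beside 11.6% of all distal sites, and in 0.605% of flanking windows. KLF motifs were in 10.6% of members and 8.51% of single sites, beside 9.35% of all distal sites. The GC box was in 14% of members (12.3 to 15.9) and 11.1% of single sites (10.1 to 12.2), beside 12.1% of all distal sites. NFE2 and AP-1 motifs were in 9.51% of members, beside 9.63%, and RUNX motifs in 17.1%, beside 16.5%. PU.1, ETS and STAT motifs were in 1.48%, 2.54% and 3.45% of members, beside 1.22%, 3.14% and 3.25% of all distal sites. For all of these but the GC box and KLF, member shares lay within 1 percentage point of the share of all distal sites.

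**Figure D5:**
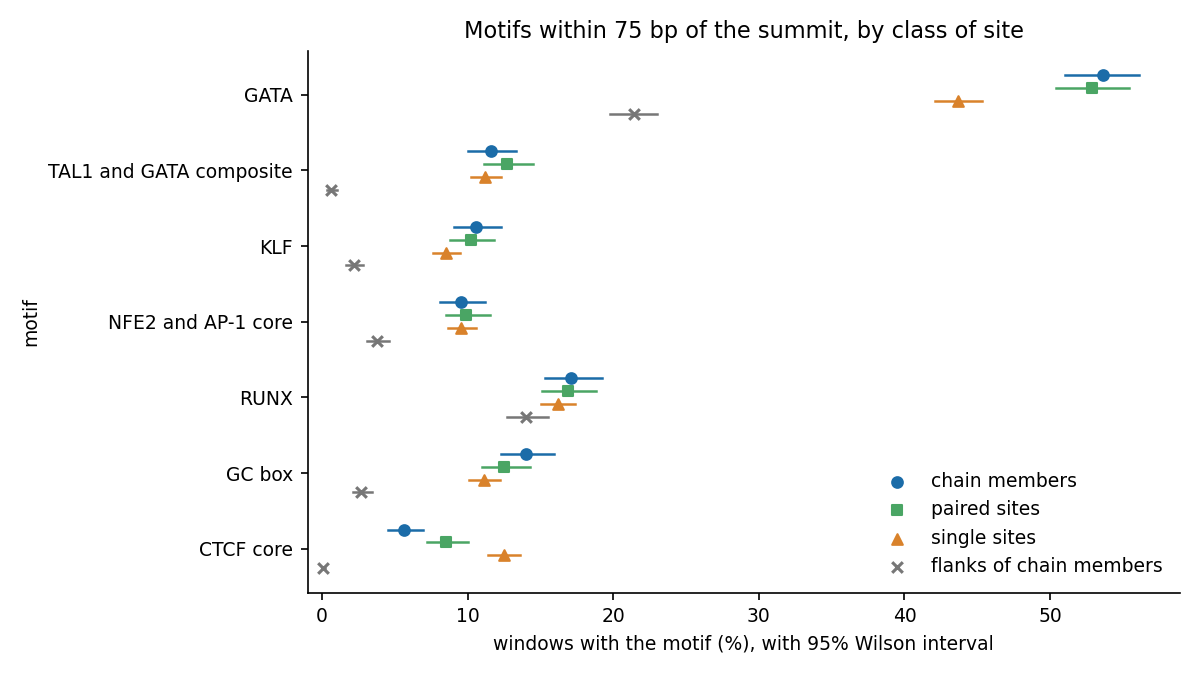
Share of windows within 75 bp of the strongest summit that hold each of 7 motifs (x axis, %, with 95% Wilson intervals) in chain members, paired sites, single sites and windows flanking chain members. GATA is highest in chain members (53.6%) and paired sites (52.9%), and the CTCF core is lowest among the site classes in chain members (5.64%).

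With GATA motifs in 53.6% of all members, at least 1 member had one in 372 chains (92.5%) and at least 2 members did in 244. Every member did in 46, and 30 chains had none. Such counts depend on the share per site and on the number of sites in a chain, and no reference by chain size was taken. The strongest members of the chains held a GATA motif in 55.5% (50.6 to 60.3) and the other members in 52.8% (49.7 to 55.9). The composite was in 15.2% of strongest members (12 to 19), against 10.1% of other members (8.42 to 12.1), and these intervals overlap slightly. The GC box was in 18.2% of strongest members (14.7 to 22.2) and 12.4% of other members (10.5 to 14.6), without overlap. Such intervals treat members of the same chain as independent, so overlap or its lack is no test. The strongest members were picked by replicate 1 values. Members with a GATA motif had a median enrichment of 6.08 in replicate 1 and 6.19 in replicate 2, and members without one had 5.97 and 6.05. A CTCF core was found in at least 1 member of 67 chains (16.7%).

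Member summits lay in introns in 52.9%, between genes in 41.5% and in exons in 5.64% (4.55 to 6.96), beside 52.7%, 39.9% and 7.45% (6.84 to 8.12) of all distal sites. Their median distance to the nearest start site was 6711 bp, against 6774 bp for single sites. All members lay inside 1 gene in 142 chains and between genes in 120. Open promoter sites stood within the span of 83 chains (20.6%) and within 50 kb of 329 (81.8%). Nearness to a promoter site was common to distal sites. Between summits, the median distance to one was 19.2 kb for members, 22.1 kb for single sites and 20.9 kb for all distal sites. The upper quartiles were 43.4, 56.4 and 52.1 kb. The median chain had 2 protein-coding genes within 50 kb, the most had 14, and 21 chains had none. There were 8 genes that held more than 1 whole chain: Gse1 with 3, and Gm20388, Inpp5d, Ldlrad4, Lipc, Mboat2, St3gal1 and Usp7 with 2 each. Gm20388 is the readthrough gene over Zfpm1 and Gse1.

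By chromosome, members were 27.5% of distal sites on chromosome 1 (23.3 to 32.2) and 14.5% on chromosome 13 (10.9 to 19.2), the highest and lowest among the autosomes. Chromosome 11 had the most chains, 35, or 2.87 per 10 Mb, but also the most distal sites, 573. Its member share, 23.4% (20.1 to 27.0), was near the 21.9% of all distal sites. In 11 members the summit window has a near-identical copy elsewhere in the assembly, 3 in the Entpd4 chain and 5 in a chain called after Gm27179, where reads cannot be placed with certainty, and 1 each in chains called after Specc1, Mettl7a1 and Pdia4.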

How the data were processed

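The thresholded peak lists of 2 ATAC-seq replicates were used, with the less strict list of each replicate for weak sites and the thresholded list made from both replicates as an alternative. In the deposited lists the authors' peak caller gives each summit a fold enrichment over background (a ratio), a significance as −log10 p, and an offset within its interval. The sources used here name no aligner, peak caller, caller settings or normalization of the fold. The labels place all coordinates in mm10. The lists hold no read counts, so depth is unknown.

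Distinct intervals were kept, each with its strongest summit, and joined into chains (Python 3.11.15, pandas 2.3.3, numpy 2.4.6, pysam 0.24.0, scipy 1.17.1). GENCODE M21 gave start sites and genes, and GRCm38.p6 (RefSeq) gave sequences. A gene was near a chain when its body lay within 50 kb of the span. Near-identical copies were found by exact 32-mers. The chain rule, overlap rule and motif search were tested on simulated data. With 1 group of 2 replicates no test between conditions was made.

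The members, the 14 gene lists, the motifs and the alternatives were chosen with earlier results of these data known. Named chains were the 10 with most members, the 5 widest, the 5 of highest and the 3 of lowest mean enrichment, and those within 50 kb of an erythroid transcription regulator or globin gene. A chain is called by the protein-coding gene that holds its strongest member or, failing that, has the nearest start site. The members of gene lists near chains were named too. Genes holding several chains, and chains with copied windows, were named after their values were seen.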

Additional observations from a re-analysis of the deposited data

How the results depend on the processing

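The chain rule has settings that were varied one at a time, over 104 alternatives in all to 8 results, and 35 stayed within 1.5 times (counts) or 1 SD between replicates (other values). A largest gap of 5 kb gave 152 chains with 482 members, a median span of 5.72 kb, 91.4% of chains found with replicate 2, a median enrichment of 5.02, 410 genes within 50 kb and 14.7% of erythroid list genes near a chain. A gap of 25 kb gave 613 chains with 2458 members, 25.5 kb, 99.3%, 6.38, 52.0% of members with a GATA motif, 1947 genes and 46.6% of erythroid list genes. At least 5 sites per chain gave 50 chains with 278 members, 24.4 kb, 90%, 5.45, 59.0% with GATA, 148 genes and 11.2%. Keeping only the upper 50% of both replicates by enrichment left 9 chains with 27 members, 18.2 kb, 100%, 9.35, 59.3% with GATA, 27 genes and 0.862% of erythroid list genes, beside 0.124% of all genes. The list made from both replicates gave 977 chains with 3839 members, 13.5 kb, 39.7%, 5.53, 46.9% with GATA, 2568 genes and 58.6%, beside 11.8% of all genes. The 39.7% sets these 977 chains against the 408 chains built from replicate 2 intervals found in replicate 1. It is no measure of agreement between replicates.

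Sites over 2 kb from start sites gave 12.8 kb, 54.9% with GATA, 735 genes and 24.1% of erythroid list genes. Start sites of protein-coding transcripts only gave 13.8 kb, 51.5% and 39.7%. Ending chains at promoter sites gave 12.5 kb, 54.4% and 26.7%. Requiring at least 50% of both intervals to overlap gave 99.7% of chains found with replicate 2 and 35.3% of erythroid list genes. Building from replicate 2 intervals gave 13.3 kb, 96.3%, 52.5% with GATA and 38.8%. A GATA window of 50 bp gave 46.3%, and AGATAA and TGATAA alone gave 43.0%. Counting start sites in place of gene bodies gave 35.3% of erythroid list genes, and a distance of 10 kb gave 526 genes and 27.6%. Under each of these alternatives the share of erythroid list genes near a chain stayed above that of all genes, which with the upper 50% of intervals rests on 1 gene.

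With either replicate alone, there were 496 to 554 chains with 1790 to 2042 members, median spans of 13.2 to 13.4 kb, 74.4% to 83.3% of chains found with the other replicate, median enrichments of 5.84 to 5.92, 50.7% to 51.3% with GATA, 1404 to 1535 genes and 41.4% to 45.7% of erythroid list genes. No paired analysis was possible because the study has a single group of 2 replicates. The causes of these shifts were not tested, beyond that stricter rules keep fewer sites by construction. Depth is unknown, so it is not known how firmly sites near the authors' threshold are in or out, and each share rests on the 2 libraries.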
